A study of Mus musculus with 5 samples.

Results

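The *Peg10* and *Sgce* locus is an imprinted gene cluster on proximal mouse chromosome 6, and it carries the peak with the second-highest score among all listed genomic binding sites of the long non-coding RNA *Paupar*. It was taken here as 8 genes (*Casd1*, *Sgce*, *Peg10*, *Ppp1r9a*, *Pon1*, *Pon3*, *Pon2* and *Asb4*) of the 22380 protein-coding genes of the NCBIM37 annotation, together with every peak whose midpoint lies between 4.0 and 6.0 Mb of chromosome 6 (NCBIM37, the assembly also called mm9). That window holds 8 of the 2849 peaks of the list and 8 of the 178 on chromosome 6. The window was selected on the score of its highest peak. The scores, widths and number of its peaks, and the peak counts and distances of its genes, are therefore given as a description, with no test.

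*Paupar* is transcribed next to the transcription factor gene *Pax6*, and its binding was mapped by CHART-Seq, which recovers the DNA associated with an RNA by means of biotinylated capture oligonucleotides complementary to that RNA, followed by elution with RNase H. The cells were N2A mouse neuroblastoma cells, a single tumour-derived line with no transgene or treatment named in the labels, and all 5 libraries came from them: 2 pull-downs with *Paupar* oligonucleotides, 2 with a control oligonucleotide against *LacZ*, and 1 of input DNA. The deposited list gives 1 position and 1 score for each peak found against both *LacZ* and input DNA. It holds no value per library, so no peak has a replicate error here, the depth behind each peak is unknown, and the parental alleles are not told apart. Expression of the genes was not analysed here.

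Imprinted genes are expressed mainly from the chromosome inherited from one parent, under the control of a region that is methylated on one allele only. In this cluster the paternally expressed genes *Peg10* and *Sgce* start next to each other on opposite strands, and the CpG-rich sequence at their starts is the methylated region of the maternal chromosome. *Peg10* derives from the gag and pol genes of a retrotransposon and is required for the placenta, whereas *Sgce* encodes epsilon-sarcoglycan, which is mutated in myoclonus-dystonia. The neighbouring *Ppp1r9a*, *Asb4*, *Pon2* and *Pon3* have been described as imprinted in some tissues only.

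The sequences at the starts, at the end of *Peg10* and inside the highest peak show how these elements differ in composition, and all are given on the plus strand of NCBIM37. The 101 bases that separate the annotated starts of *Sgce* and *Peg10*, at chr6:4697205-4697305, follow with each CpG in capitals, 13 in all.

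Sgce and Peg10 starts: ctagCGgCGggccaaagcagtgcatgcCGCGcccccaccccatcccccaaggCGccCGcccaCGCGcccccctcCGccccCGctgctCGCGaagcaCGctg

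The last 30 annotated bases of *Peg10*, at chr6:4710485-4710514, carry 2 overlapping copies of the polyadenylation signal, shown in capitals. Only 3 bases lie between them and the first base of the highest peak.

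Peg10 end: ttcAATAAATAAAgacttagtggttaaggc

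The highest peak contains a G-rich tandem array, of which the 300 bases at chr6:4712234-4712533 are shown. Capitals mark 10 copies of an 8-base word, AGGGGTGG, which is the reverse complement of bases 10 to 17 of the capture oligonucleotide PauparCHART254.

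Array: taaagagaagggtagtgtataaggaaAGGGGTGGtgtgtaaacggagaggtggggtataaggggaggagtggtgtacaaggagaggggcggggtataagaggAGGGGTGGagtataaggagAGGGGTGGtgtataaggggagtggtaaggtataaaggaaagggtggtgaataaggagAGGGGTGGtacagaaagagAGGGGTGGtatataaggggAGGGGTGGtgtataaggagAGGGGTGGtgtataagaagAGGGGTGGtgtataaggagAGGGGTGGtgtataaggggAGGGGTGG

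PauparCHART254: ggcttaagtCCACCCCTggattcg

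The peaks were numbered 1 to 8 along the chromosome, and the map of the window shows their scores over the genes. Of these, 4 lie at *Peg10*: peak 3 in its first intron and peaks 4, 5 and 6 directly past its end. Peak 4 (chr6:4710518-4715214) had a score of 151.88 and a width of 4697 bp, which rank second and 15th of 2849. The next score of the window, 19.11, belonged to peak 6. The list does not say what the score is, and the study filtered its calls on a log-scaled significance, so the scores may be on such a scale and were used only to rank and filter peaks. On chromosome 6 as a whole, the second-highest score was 74.66.

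**Figure D1:**
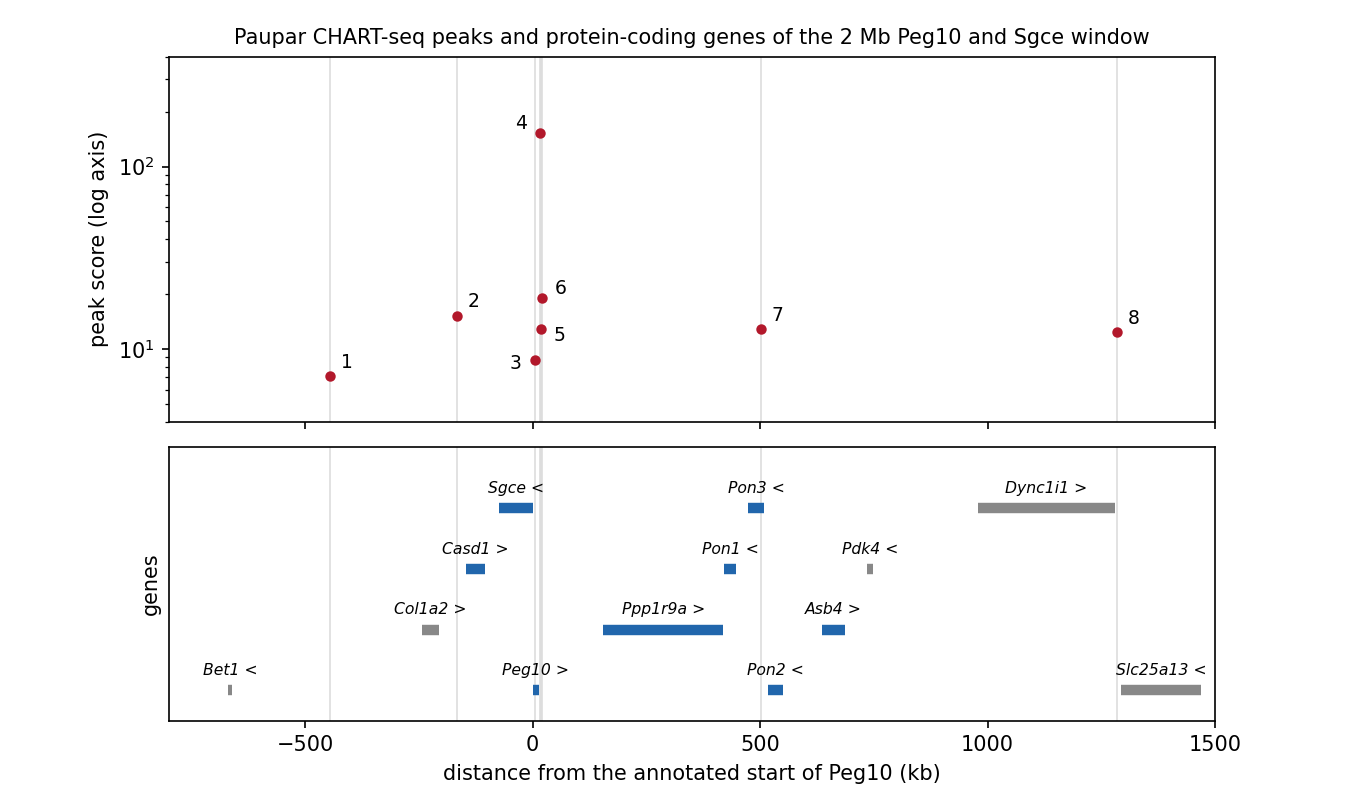
Peaks of the 4.0 to 6.0 Mb window by the distance of their midpoint from the annotated start of *Peg10* in kb (horizontal axis) and score (vertical log axis), above the protein-coding genes, with the 8 listed genes in blue, other genes in grey and the direction of transcription marked by > or <. Peak 4, with a score of 151.88, stands above the other 7 peaks, which lie between 7.1 and 19.11.

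The remaining scores were ordinary for the list. All 7 were below 20 and together with peak 4 they had a median of 12.91, beside a median of 12.69 over all peaks. Their ranks ran from 694 for peak 6 to 2705 for peak 1. Of the 8 widths, 2 exceeded 1 kb, which is the case for 506 of the 2849 peaks. Those were peak 4 and peak 6, at 4697 and 2491 bp. Peak 3 was the narrowest, with 306 bp, and the median width of the window was 632.5 bp beside 556 bp over the list. In the plot of score against width, peak 4 sits at the upper edge of the list and the others lie within its main cloud. Of the 10455 bp that the 8 peaks cover, 44.9% lie in peak 4.

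**Figure D2:**
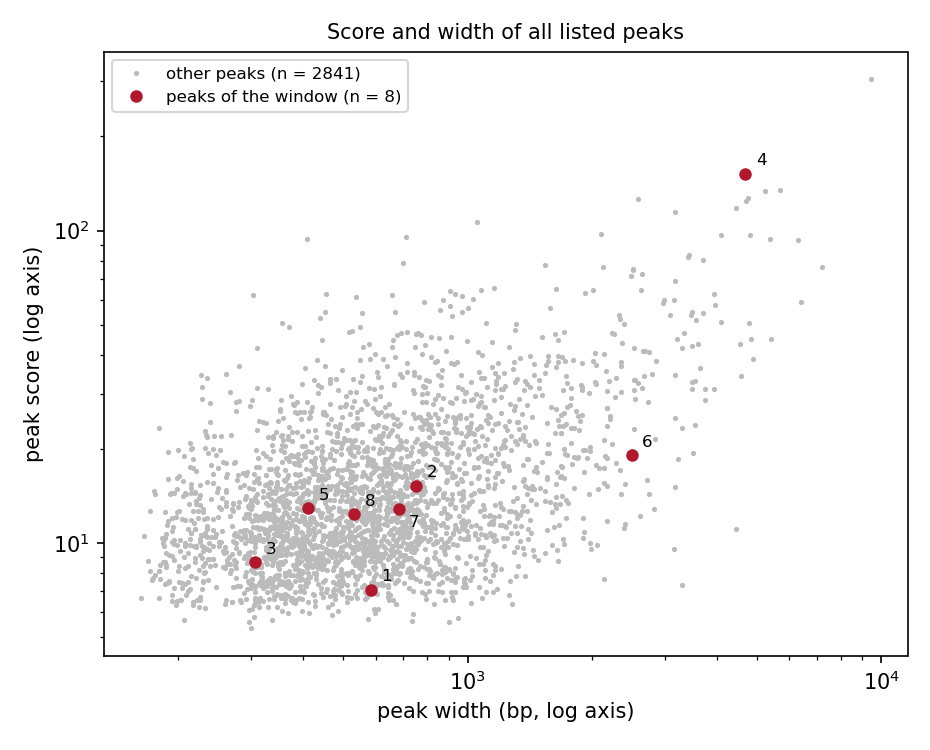
Score (vertical log axis) against width in bp (horizontal log axis) for all 2849 listed peaks, with the 8 peaks of the window in red and numbered along the chromosome. Peak 4 is among the widest and highest-scoring peaks, and peak 6 is wide (2491 bp) for a score of 19.11.

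Peak 4 was preceded in the ranking by a peak at chr15:100745135-100754577, which scored 305.37 over 9443 bp. The middle of that peak falls 14004 bp before the start listed for *Scn8a*, a gene for a voltage-gated sodium channel. The end listed for *Scn8a* is 21373 bp away, so the entry used is short and may not cover the whole gene. Whether the peak lies inside a longer form of *Scn8a* was not tested. Peak 4 was followed by a peak at chr8:12128855-12134546 with a score of 135.15 over 5692 bp, whose midpoint is 147119 bp from the nearest annotated start. Of these 3 peaks only that at *Peg10* borders the annotated end of a gene. The midpoints of the other 2 lie 21373 and 148957 bp from the nearest annotated gene end, and that of peak 4 lies 2352 bp past the end of *Peg10*.

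The borders of the window did not cut through a group of peaks. The last peak before it, in an intron of the calcitonin receptor gene *Calcr*, lies at chr6:3674455-3675504 with a score of 11.42 over 1050 bp. The first peak after it, at chr6:6610597-6610909, scored 17.57 over 313 bp and is 82101 bp from the start of *Shfm1*. Peak 1 (chr6:4252441-4253024) is the outermost member on the proximal side and peak 8 (chr6:5981979-5982511) on the distal side, with scores of 7.1 and 12.37. A density of 4.0 peaks per Mb was found in the window, beside 1.22 on chromosome 6 and 1.11 over the genome. Of 1315 consecutive windows of 2 Mb, 61 (4.64%) held at least 8 peaks, and the fullest held 16. Merging peaks within 10 kb reduced the window to 5 sites.

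*Peg10* runs from 4697306 to 4710514 on the plus strand of chromosome 6 and has 3 annotated exons. Peak 3 (chr6:4701413-4701718, score 8.68, rank 2348) lies wholly in the first intron, with its midpoint 4259 bp downstream of the start. No peak overlapped an exon of the gene, including the 5182 bp last exon, which holds the end of the coding sequence and the long 3′ untranslated region. Peaks covered 306 bp of the gene body. Directly past its end, peaks 4, 5 and 6 formed a cluster that spans 8425 bp, of which 7600 bp (90.2%) are covered. No gene of any type is annotated in this cluster.

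Peak 5 (chr6:4715374-4715785) is a narrow peak of 412 bp with a score of 12.93, separated from peak 4 by 159 bp. Peak 6 (chr6:4716452-4718942) follows after a gap of 666 bp. That gap is poorly accessible to uniquely placed reads, since only 27.7% of its 50-base words occur once in the genome, whereas the figure is 100% for the 159 bp gap. Peaks 4, 5 and 6 had 94.0%, 100% and 99.4% unique words, and the median over the list was 100%. The reads were 50 bp long and the authors kept only those with 1 best position, and most single reads from these 666 bp would have more than 1 position. Whether peaks 5 and 6 are separate sites was not tested.

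**Figure D3:**
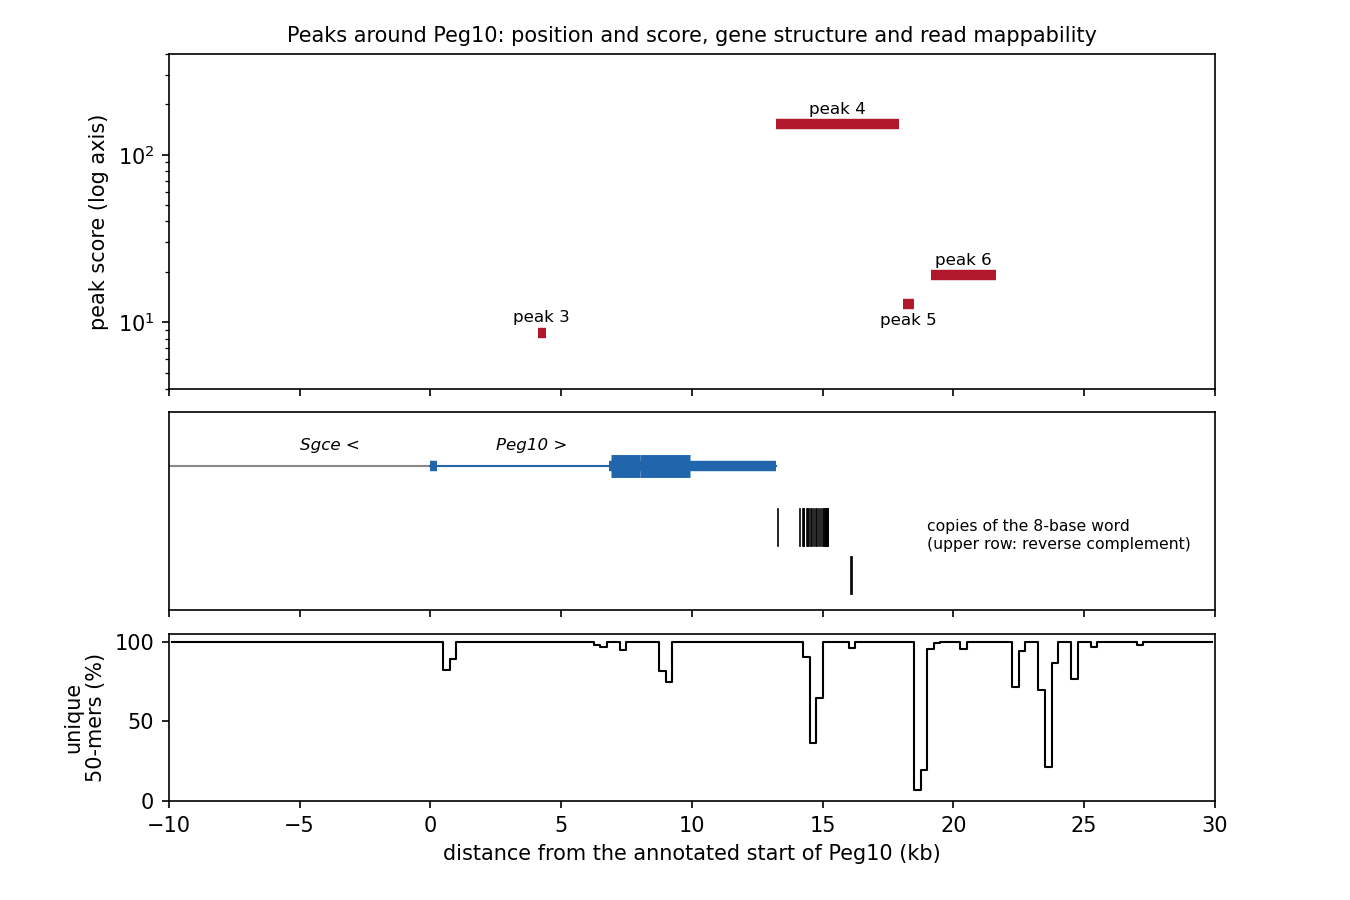
Surroundings of *Peg10* by distance from its annotated start in kb. The upper panel gives each peak by its extent and score (log axis), the middle panel the exons (thick) and coding parts (thickest) of *Peg10*, the body of *Sgce* and the copies of the 8-base word in peak 4, and the lower panel the percentage of 50-base words that occur once in the genome, in bins of 250 bp. The first exon and the coding parts carry no peak, the 3 peaks past the end follow each other closely, and mappability falls in the array and between peaks 5 and 6.

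To see how common such a position is, the bases covered by peaks within 10 kb past the annotated end were counted for every protein-coding gene. There were 451 genes with any covered base (2.02% of 22380). With 7600 bp, *Peg10* ranked first, ahead of *4833420G17Rik* with 4887 bp and *Olfr279* with 3476 bp. None of the other 7 listed genes had a covered base there. Most of this length is that of peak 4, on which the window was selected, so the rank is a description as well.

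*Sgce* extends from 4624350 to 4697204 on the minus strand, so that its start faces that of *Peg10*. No peak lay in its body. Because it is transcribed away from *Peg10*, the peaks past the end of *Peg10* lie upstream of *Sgce*, peak 4 with its midpoint at 15662 bp. The 1 kb centred between both starts, from 4696755 to 4697754, had a GC content of 61.2% and 63 CpG dinucleotides (observed over expected, 0.677), and each of its 50-base words was unique, so reads could be placed there. No peak overlapped it. The nearest border, that of peak 3, is 4107 bp from the start of *Peg10*. None of the 8 genes had a peak midpoint within 1 kb of its start, compared with 1.0% of all protein-coding genes.

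A midpoint in the gene body was found for *Peg10* and *Pon3*, or 2 of the 8 genes, beside 5.04% of all protein-coding genes. Genes were also assigned peaks by regulatory domains (the GREAT rule, in which a basal region of 5 kb before and 1 kb after each start grows until it meets that of a neighbour or has gained 1 Mb). This gave 5 of the 8 genes at least 1 peak, beside 16.4% of all genes. They were *Casd1*, *Sgce*, *Ppp1r9a*, *Pon1* and *Pon3*. Of these, *Sgce* and *Ppp1r9a* share peaks 4, 5 and 6, and *Pon1* and *Pon3* share peak 7. The window was selected on peak 4 and its genes share peaks, so the counts in bodies and domains are a description.

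The rule divides the *Peg10* cluster in a way that depends on the shared start. The basal region of *Sgce* reaches into the body of *Peg10*, past peak 3, which stops the domain of *Peg10* at 4698306, and all 4 peaks in and past *Peg10* fall to *Sgce*. Thus *Sgce* received 4 peaks and *Peg10* none. By the nearest start alone, *Peg10* received these 4 and *Sgce* none, and the genes with a peak were *Casd1*, *Peg10* and *Pon3*. The assignment of the highest peak to either gene therefore rests on the rule and not on a measurement.

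*Ppp1r9a*, which encodes neurabin, a neuronal scaffold that binds actin and protein phosphatase 1, starts at 4853004 on the plus strand. It shares peaks 4, 5 and 6 with *Sgce* in its domain, but the nearest of them, peak 6, has its midpoint 135307 bp upstream. The 262658 bp of its body held no peak. When a domain could gain no more than 100 kb, it had none.

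*Casd1* encodes an enzyme that O-acetylates sialic acids and runs from 4550840 to 4593381 on the plus strand. Its peak was peak 2 (chr6:4530488-4531238), with a score of 15.26 and a width of 751 bp, 19977 bp upstream of the start. The same peak lies 76049 bp downstream of the start of *Col1a2*, a fibrillar collagen gene.

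The paraoxonases are esterases and lactonases known from lipoprotein metabolism in liver and serum. Their 3 genes lie side by side on the minus strand, and 1 peak was found among them. Peak 7 (chr6:5199348-5200028) lies in an intron of *Pon3*, with its midpoint 6598 bp downstream of the start, a score of 12.88 and a width of 681 bp. It is also in the domain of *Pon1*, whose start is 55742 bp away. *Pon2* had no peak in its domain, and peak 7, 48767 bp downstream of its start, is the nearest.

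*Asb4*, which encodes a substrate receptor of ubiquitin ligases, had no peak in its domain of 191853 bp, and its start is 133698 bp from peak 7. Between peaks 7 and 8 there were 781950 bp without a peak, a stretch that holds *Pon2*, *Asb4*, the pyruvate dehydrogenase kinase gene *Pdk4* and the dynein chain gene *Dync1i1*. Unique words made up 91.4% of it. Peak 8 lies between the ends of *Dync1i1* and of the mitochondrial carrier gene *Slc25a13*, 4206 bp past the end of the former. At the other side of the window, peak 1 was 202082 bp upstream of *Col1a2*. It shares the regulatory domains of *Col1a2* and *Bet1*, a gene for a vesicle transport protein.

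The start of a listed gene was 4259 bp (*Peg10*) to 135307 bp (*Ppp1r9a*) from the nearest peak, with a median of 34372 bp, beside 277386 bp over the protein-coding genes on chromosomes with peaks. The 8 genes are neighbours and share their peaks, so these distances are not independent of each other. They also lie in a window selected on its highest peak, so the comparison with all genes is a description only. Counted from the peaks, the median distance to the nearest start was 19125 bp in the window and 31652 bp over the list.

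Imprinted genes elsewhere were examined in the same way. Of a list of 66 imprinted genes found in the annotation, 17 (25.8%) had a peak in their domain, of which 4 are in the window. Outside it there were 13 of 59 (22.0%), beside 16.4% of all genes. These are not all separate sites, since *Kcnq1* and *Cdkn1c* count through the same peak. The highest peak of *Calcr* is the last one before the window. Over all 59 genes outside the window, with or without a peak in the domain, the median distance to the nearest peak was 184933 bp, beside 277386 bp over all genes. The highest score for one of the 13 with a peak was 32.64, at the potassium channel gene *Kcnk9* (chr15:72092823-72093840), 283378 bp downstream of the start. *Klf14* had a peak of 21.12 located 51783 bp upstream. Apart from *Sgce* and *Ppp1r9a*, whose domains hold peak 4, no gene of this list had a peak with a score above 32.64.

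Families of the locus genes were counted in the same way, beside the 16.4% of all genes. Among 17 sarcoglycans and dystrophin-associated proteins, 5 (29.4%) had a peak, or 4 of 16 (25.0%) without *Sgce*, and after *Sgce* the highest score was 53.75 for the syntrophin gene *Sntb1*, from a peak 295985 bp from the start that lies in *Mtbp*. Of 16 gag-derived genes, *Peg10* included, 2 (12.5%) had one, or 2 of 15 (13.3%) without *Peg10*. They were *Rgag1* with a score of 22.01 and *Zcchc16* with 10.4. Of 10 genes for neurabins and protein phosphatase 1 and its regulators there were 2 (20%), *Ppp1r9a* itself and *Ppp1r1a*, at 8.42, which leaves 1 of 9 (11.1%) without *Ppp1r9a*. Without the genes of the window, the median distance to the nearest peak was 317602 bp for the sarcoglycan list. It was 566170 bp for the gag-derived list and 175217 bp for the neurabin list, beside 277386 bp over all genes. Each of these lists holds at most 17 genes.

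The GC content of the 8 peaks ranged from 36.9% (peak 5) to 47.1% (peak 3), with a median of 43.9%, beside 48.1% over the list. Their CpG dinucleotides were sparse, with observed over expected values from 0.0627 in peak 6 to 0.304 in peak 5. The median was 0.152, beside 0.179 over the list, so sparse CpGs were common to the listed peaks. Both medians contrast with 0.953 in the 101 bases between the *Sgce* and *Peg10* starts printed above. Peak 4 held 24 CpGs over its 4697 bp, or 0.122 of the number expected.

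Internal repetition set peak 4 apart from the other members. Of its 12-base words, 16.9% occurred more than once within the peak, while peak 2 had 6.08%, peak 8 had 3.45%, the others at most 0.597%, and the median of the list was 0. The largest block of repeated words, at chr6:4711428-4712539, is 1112 bp long and starts 914 bp past the end of *Peg10*. Copies of the word AGGGGTGG in the peak recur most often at 19 bp, a distance found 10 times among 23. These distances include that from a copy before the block. Over offsets of 8 to 60 bp the block matched itself best at 38 bp, with 73.1% identity, beside a median of 34.5%. Within the block 74.5% of 50-base words are unique in the genome. Among the 5 highest-scoring peaks of the list, repeated words made up 14.6 to 62.1%, so repetition at this level was shared with the other high peaks. These 5 peaks are 4697 to 9443 bp wide, beside a median of 556 bp over the list. A word has more room to recur in a wide peak, and peaks of like width were not compared.

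AGGGGTGG and its reverse complement CCACCCCT occurred 26 times in peak 4, and 23 of these copies lie in the array. There were 24 copies as AGGGGTGG and 2 as CCACCCCT on the plus strand. The word was picked after seeing the data, as the most frequent of the 68 words of 8 bases that the 4 *Paupar* oligonucleotides contain, and so its count in this peak is a description. The next most frequent word from elsewhere in the oligonucleotides occurred once. None of the other 7 peaks held a copy.

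**Figure D4:**
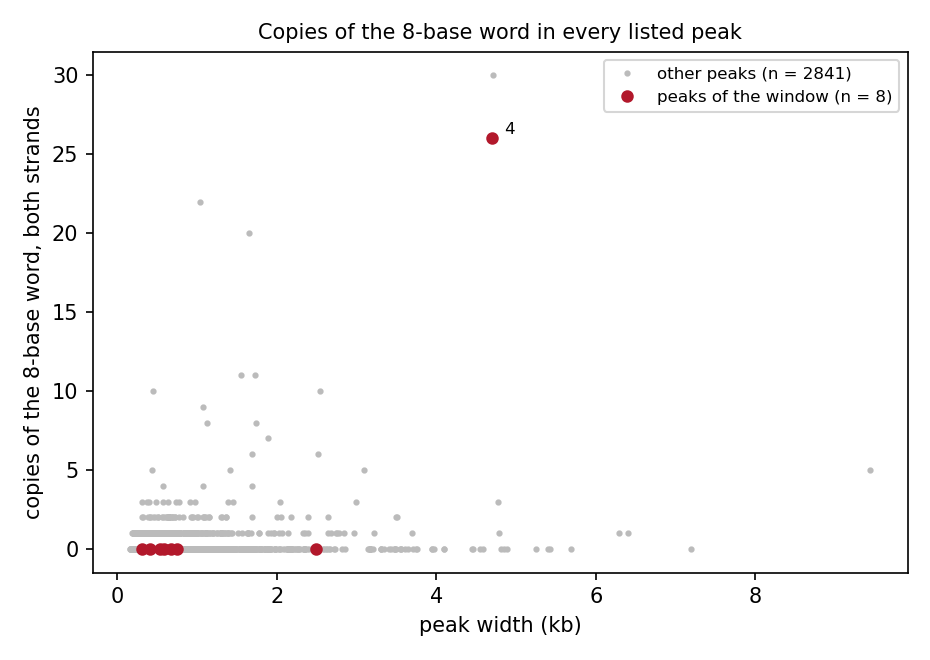
Copies of AGGGGTGG on both strands (vertical axis) against peak width in kb (horizontal axis) for all 2849 peaks, with those of the window in red. Peak 4 has 26 copies, the second-highest number of the list (17th per kb), and the other 7 peaks of the window have 0.

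Across the list, 441 peaks (15.5%) held at least 1 copy, beside 6.44% of the 5698 regions of equal size directly upstream and downstream of the peaks. In copies per kb these values were 0.337 and 0.127, and 0.293 when the 4 peaks with 20 or more copies were left out. No other single word of the oligonucleotides was compared over the list, and the neighbouring regions were not matched in base composition. Matches of at least 8 nt to any part of the oligonucleotides, given below, were also more frequent in peaks than in neighbouring regions. Whether the difference is particular to this word was therefore not tested. Peak 4 reached 5.54 per kb, which ranks 17th of the list, whereas by the number of copies, which grows with width, it ranks second. A single peak had more copies, 30, at chr8:35570796-35575511, which ranks seventh by score (124.13). Over the whole window the word was found 108 times, 0.054 per kb, and no bin of 5 kb away from peak 4 held more than 2. In the *Paupar* transcript the word occurs once, within the site of the oligonucleotide. Peaks were called against a *LacZ* oligonucleotide of other sequence, and whether this sequence has a part in the score of peak 4 was not tested.

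Longer matches to the oligonucleotides were about as frequent in the window as over the whole list. A match of at least 10 nt on either strand was present in 2 of the 8 peaks, beside 24.6% of all peaks and 10.2% of the neighbouring regions. One lies in the *Peg10* intron, peak 3, at chr6:4701548-4701577. The other lies in peak 6, at chr6:4718173-4718202. Both are printed with the matched bases in capitals, and the oligonucleotides match on the minus strand.

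Peak 3: cagctttcccTCGCAGTTTCggacctatag

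PauparCHART2041: ctctcaGAAACTGCGAtacaaaag

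Peak 6: ggtgatgtttTCTAGTTCCAttcatttgcc

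PauparCHART428: gccTGGAACTAGAtcaaggcagag

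In peak 4 the longest match was 9 nt, to PauparCHART254, and in the remaining 5 peaks it was 7 or 8 nt. With a minimum of 8 nt, 7 of the 8 peaks had a match, beside 86.9% of all peaks and 71.4% of the neighbouring regions. With 12 nt, none had one, beside 1.76% and 0.544%. The *LacZ* oligonucleotide matched the 8 peaks over 5 to 8 nt.

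The longest match between peak 4 and the *Paupar* transcript was 40 nt and consisted of CA repeats, which match a GT run at bases 21 to 60 of the transcript on the opposite strand. Matches this long were present in 60 of the 2849 peaks (2.11%). The 14 nt match of peak 1 was also a GT run. In the other 6 peaks the longest match was 10 to 13 nt, and the median of the list was 11 nt.

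PAX6 and CTCF consensus sites were searched for on both strands with at most 2 mismatches. PAX6 is the transcription factor encoded next to *Paupar*, and CTCF is a factor that binds some imprinting control regions. A PAX6 site was present in 4 of the 8 peaks (peaks 2, 4, 5 and 6), beside 28.2% of all peaks and 28.1% of the neighbouring regions. CTCF sites were present in 4 peaks (peaks 2, 4, 6 and 8), beside 43.0% and 40.6%. In sites per kb the window had 0.67 for PAX6, beside 0.58 over the list, and 0.67 for CTCF, beside 1.03. Peaks 4 and 6, the widest, held 5 of the 7 PAX6 sites and 5 of the 7 CTCF sites.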

How the data were processed

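Per the study's methods, pairs of 50 bp reads were placed on mm9 with Bowtie, only unique best positions were retained, and MACS2 called peaks against matched *LacZ* and input DNA. Versions are not given in the sources used here. The authors deposited 1 list of peaks with a score for each; its relation to the calling statistic, and how both *Paupar* pull-downs were joined, are not stated. Starts were converted to count from 1.

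Genes, starts and sequence came from NCBIM37 and its annotation. Oligonucleotides came from the study's supplementary files. Matches were exact and on both strands, and 50-base words were counted over the whole genome. The *Paupar* transcript was taken as the 3517 nt between its cloning primers on chromosome 2. Named are the 8 genes, the 8 peaks, their neighbours in position and rank, and up to 4 genes per list by score. Imprinted genes that share a peak are named as well. The members and lists were chosen with earlier results of these data known. Domain assignment and word counting were tested on simulated data. Of the imprinted list, 11 of 77 names were not among the protein-coding genes. Python 3.11.15, numpy 2.4.6 and matplotlib 3.10.9 were used.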

Additional observations from a re-analysis of the deposited data

How the results depend on the processing

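No paired analysis was possible because the list holds no values per library, and for the same reason no library could be left out. The 8 peaks of the window became 5 when peaks within 10 kb or within 100 kb were merged. Genes with a peak in the body numbered 1 in place of 2 at a score of at least 10, which removes peak 3. Genes with a peak in their domain numbered 3 in place of 5 by the nearest start only. Peaks with an oligonucleotide match numbered 2 at 10 nt, 7 at 8 nt, 0 at 12 nt and 1 in the central 200 bp. The other alternatives stayed within 1.5 times of the reported value: 6 peaks at a score of at least 10, 4 genes with domains extended by at most 100 kb, and 12 to 15 imprinted genes in place of 17 (18.2 to 22.7%, beside 9.95 to 12.6% of all genes). These counts of imprinted genes include the genes of the window, which was selected on its highest peak. The median distance to a start was the same with the starts of all transcripts. The word AGGGGTGG was chosen after seeing the data. The score has no error here and depth is unknown, so the ranks of peaks with close scores are not separated.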
